A study of Mus musculus with 6 samples.

Results

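The regions shared by pc-BMACs and plasma cells are stretches of the mouse genome that were called as accessible chromatin in both libraries of each of these populations and in neither library of immature B cells. Overlap of 1 bp or more joined the peaks of 6 ATAC-seq libraries into 69171 merged regions, and 2529 of these (3.66%) met the rule. The members were therefore chosen on the peak calls themselves, so that presence in the 4 libraries of pc-BMACs and plasma cells and absence from immature B cells is a description and carries no test. ATAC-seq uses a transposase that cuts and tags open chromatin, and a peak marks a stretch where such cuts pile up.

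All cells were sorted from the bone marrow of naive Balb/c mice of the Adig line, which carries a green fluorescent reporter of Aire. The pc-BMACs (bone marrow antigen presenting cells that carry plasma cell surface markers, labelled as hematopoietic cells) were sorted as Aire-GFP+ B220- CD138+ TACI+. Plasma cells were sorted with the same markers but as Aire-GFP-, and immature B cells as Aire-GFP- B220+ CD138- TACI- IgM+. Each population had 2 libraries, each made from 2000 to 15000 sorted cells, and the labels leave unsaid whether replicate libraries are from different animals. The ages of the mice are not stated in the labels.

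Plasma cells are the end stage of the B cell lineage and secrete antibody. Their programme is set up by the transcription factors Blimp-1 (Prdm1), IRF4 and XBP1, which expand the endoplasmic reticulum and its protein folding machinery and shut down much of the B cell programme held by Pax5 and Ebf1. Aire is a transcription regulator best known from thymic epithelium, where it drives the display of self antigens, and it is also found in some antigen presenting cells outside the thymus.

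Most of the shared regions lay away from gene starts, but a few covered one, among them those of the plasma cell markers Tnfrsf13b, Tnfrsf17 and Jchain. The promoters of 6 genes are printed because a shared region lay over each and their genes are on lists described further on. Ly6c2, whose small member is also given further on, met the same rule but is not printed. Tnfrsf13b encodes TACI, a receptor for the survival factors BAFF and APRIL and one of the sort markers. Tnfrsf17 encodes BCMA, an APRIL receptor of plasma cells. Jchain encodes the chain that joins IgM and IgA into polymers. Cd80 encodes a ligand of CD28 and CTLA-4 on T cells, Ltbr the lymphotoxin beta receptor, and Kit the stem cell factor receptor. Each sequence is the RefSeq reference of GRCm38.p6 from 250 bases before to 50 bases after the annotated start, read 5′ to 3′ on the strand of the gene, so that the start follows the first 250 bases. The reference is not a Balb/c genome. The windows are chr11:61126505-61126804 (plus strand) for Tnfrsf13b, chr16:11313559-11313858 (plus) for Tnfrsf17, chr5:88527848-88528147 (minus) for Jchain, chr16:38458683-38458982 (plus) for Cd80, chr6:125313836-125314135 (minus) for Ltbr and chr5:75574737-75575036 (plus) for Kit. Capitals mark every match, on either strand, to any of 13 short motifs that are spelled out further on.
Tnfrsf13b: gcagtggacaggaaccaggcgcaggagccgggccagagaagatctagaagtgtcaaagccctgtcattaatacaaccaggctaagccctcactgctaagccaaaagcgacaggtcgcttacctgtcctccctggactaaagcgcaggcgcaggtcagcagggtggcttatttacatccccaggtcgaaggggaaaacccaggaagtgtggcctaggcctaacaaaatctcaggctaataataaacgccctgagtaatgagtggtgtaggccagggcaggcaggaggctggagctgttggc
Tnfrsf17: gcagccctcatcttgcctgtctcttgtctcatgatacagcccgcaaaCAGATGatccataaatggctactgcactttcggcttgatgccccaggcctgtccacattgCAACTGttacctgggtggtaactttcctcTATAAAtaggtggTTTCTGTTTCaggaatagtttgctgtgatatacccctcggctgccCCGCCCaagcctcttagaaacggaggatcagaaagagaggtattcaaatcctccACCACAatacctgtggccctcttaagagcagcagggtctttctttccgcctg
Jchain: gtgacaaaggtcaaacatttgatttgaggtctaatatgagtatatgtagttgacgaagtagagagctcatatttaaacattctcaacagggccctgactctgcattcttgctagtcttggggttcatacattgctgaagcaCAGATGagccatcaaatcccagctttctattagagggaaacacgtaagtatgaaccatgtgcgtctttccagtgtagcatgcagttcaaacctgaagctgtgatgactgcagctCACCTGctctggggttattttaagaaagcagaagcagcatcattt
Cd80: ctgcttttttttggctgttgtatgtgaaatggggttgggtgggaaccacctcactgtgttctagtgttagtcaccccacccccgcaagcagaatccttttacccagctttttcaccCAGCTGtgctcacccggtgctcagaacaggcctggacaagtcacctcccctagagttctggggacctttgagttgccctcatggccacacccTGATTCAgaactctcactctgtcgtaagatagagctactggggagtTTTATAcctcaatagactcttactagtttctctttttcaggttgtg
Ltbr: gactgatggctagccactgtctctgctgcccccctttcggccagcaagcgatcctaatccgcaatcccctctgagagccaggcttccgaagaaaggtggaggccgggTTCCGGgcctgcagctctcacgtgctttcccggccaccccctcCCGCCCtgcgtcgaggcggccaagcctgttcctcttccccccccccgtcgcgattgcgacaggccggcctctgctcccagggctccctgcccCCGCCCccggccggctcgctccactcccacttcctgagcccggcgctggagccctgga
Kit: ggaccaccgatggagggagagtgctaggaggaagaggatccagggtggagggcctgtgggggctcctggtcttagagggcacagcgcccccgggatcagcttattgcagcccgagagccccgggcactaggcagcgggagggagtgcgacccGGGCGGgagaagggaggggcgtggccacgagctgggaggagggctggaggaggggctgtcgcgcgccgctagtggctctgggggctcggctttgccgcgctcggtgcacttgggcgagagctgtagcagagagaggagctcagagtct

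The Tnfrsf13b window held no match to any of the 13 motifs. The Tnfrsf17 window held the most matches of the 6, among them TTTCTGTTTC at bases 150 to 159, which read on the other strand is GAAA, any 2 bases and GAAA, the core of an interferon response element bound by IRF proteins. A TATA box lay 114 bases before its start and a pair of E-boxes lay further upstream. In Jchain the capitals are E-boxes (CAGNTG), in Cd80 an E-box, an AP-1 type match and a TATA box on the other strand, in Ltbr an ETS type match and a pair of GC boxes, and in Kit a GC box. These are matches of letters and not shown binding sites.

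The region over the Tnfrsf13b start, chr11:61125928-61127723, had 1796 and 1488 called bases in the pc-BMAC libraries, 1284 and 878 in the plasma cell libraries and none in the immature B cell libraries. It was the only member among 9 regions assigned to the gene. The immature B cell libraries called 8 and 7 of these 9, with the nearest peak 2.41 kb away. Called bases are the length of a merged region that a library's own peaks cover, and all such values are given for libraries 1 and 2 of a population in that order. At the Tnfrsf17 start, chr16:11313431-11314113 had 581 and 683 called bases in pc-BMACs, with 272 and 467 in plasma cells. At both receptor genes every pc-BMAC library thus exceeded every plasma cell library, as at 63.8% of all members. The order was the other way at Jchain, where chr5:88527535-88528159 had 473 and 441 called bases in the pc-BMACs and 625 and 535 in the plasma cells. A further Jchain member, chr5:88540133-88541186, lay 12.2 kb upstream of the gene and had 758 and 260 called bases in pc-BMAC libraries and 815 and 1000 in plasma cell libraries. The groups did not overlap at either Jchain member, and both plasma cell libraries were the wider, as at 8.11% of all members. At the upstream member the closest values were 758 and 815, and the pc-BMAC libraries differed widely.

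Cd80, whose product costimulates T cells, had a member over its start at chr16:38458617-38459161, with 543 and 373 called bases in pc-BMAC libraries and 519 and 486 in plasma cell libraries. The populations overlapped there. The only region assigned to Ltbr was a member: chr6:125313711-125314216 had 339 and 505 called bases in the pc-BMACs and 150 and 286 in the plasma cells, where 150 bp is the smallest peak in any list. Kit had a broad member over its start, chr5:75574257-75577450, with 3194 and 3133 called bases in pc-BMAC libraries and 1178 and 1168 in plasma cell libraries. Each pc-BMAC library exceeded each plasma cell library there, as at 63.8% of all members, and the nearest immature B cell peak was 27.1 kb away.

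Before the members are described further, some facts of the libraries bear on them. The lists held 38607 and 34070 peaks in pc-BMACs, 37821 and 36723 in the plasma cells, and 51643 and 46534 in the immature B cells, so the population that defines absence had the longest lists. Read depth is unknown, since the files hold peak positions only. An uncalled region is not shown to be closed. Of 7 plasma cell marker genes with a promoter window, all 7 were called in each pc-BMAC and each plasma cell library and 4 in each immature B cell library. The windows of 5 B cell marker genes were called for 4 and 1 genes in pc-BMACs, 4 and 3 in the plasma cells, and 5 and 4 in the immature B cells. Of 6 T and NK cell markers, none was called in pc-BMACs, 2 in each plasma cell library (Prf1 and Gzma) and 1 in each immature B cell library. The Aire promoter was called in all 6 libraries, and so it does not tell the reporter-positive cells from the others. Among erythroid, myeloid and dendritic cell markers, the promoters of Gata1, Klf1, Lyz2, Elane and Itgax were called in no library, but others were. Of 5 dendritic cell windows 0 and 1 were called in pc-BMACs, 0 and 1 in the plasma cells and 1 in each immature B cell library. Each time this was Siglech. Of 5 erythroid windows a single one (Hbb-bt) was called, in plasma cells 1. Of 5 myeloid windows none was called in pc-BMACs, 1 and 2 were in the plasma cell libraries and 0 and 1 in the immature B cell libraries. These were S100a8 in both plasma cell libraries, and S100a9 in plasma cells 2 and immature B cells 2.

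**Figure D1:**
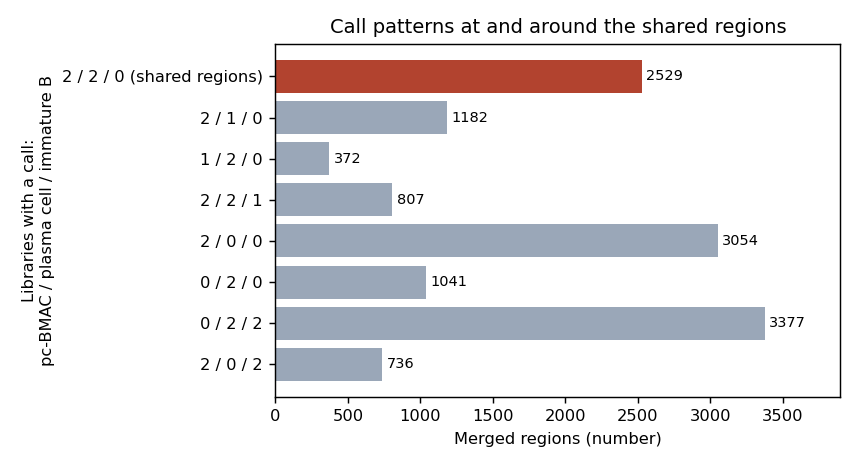
Number of merged regions (bars) by how many pc-BMAC, plasma cell and immature B cell libraries called them, in that order in each label. The shared set holds 2529 regions, against 3054 of pc-BMACs alone and 1041 of plasma cells alone.

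The shared set was the smaller share of what pc-BMACs had beyond immature B cells and the larger share of what plasma cells had. Both pc-BMAC libraries and neither immature B cell library were called at 6765 regions (9.78% of all), and 37.4% of these were members. Both plasma cell libraries and neither immature B cell library were called at 3942 regions (5.7% of all), and 64.2% of these were members. Regions of pc-BMACs alone numbered 3054 and regions of plasma cells alone 1041. Among 23804 regions called in both libraries of pc-BMACs and of plasma cells, 10.6% were members, since 20468 were called in immature B cells too.

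Just outside the rule lay 1182 regions called in both pc-BMAC libraries but in 1 plasma cell library, and 372 called in both plasma cell libraries but in 1 pc-BMAC library. Another 807 were called in all 4 and in a single immature B cell library, 597 in library 1 and 210 in library 2. The immature B cell peaks at these 807 were small, with a median of 273 bp, and 19.1% of them had the minimum of 150 bp. Just inside the rule, 153 members (6.05%) had an immature B cell peak within 500 bp, 42 had one within 200 bp and 14 within 100 bp. The nearest such peak lay 4 bp from a member, and the median distance was 5.24 kb. In 2515 members (99.4%) at least 1 base was called in all 4 libraries, and in 14 the peaks were joined only through one another.

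The members were sites of moderate width. Their merged width had a median of 634 bp, with the middle of the distribution between 450 and 919 bp, and ran from 200 to 6087 bp. Regions of pc-BMACs alone had a median of 361.5 bp, regions of plasma cells alone 303 bp, and regions called in all 6 libraries 1152 bp. A merged width grows with the number of libraries joined, so these medians cannot be compared as sizes of a site. The stretch called in all 4 libraries had a median of 277 bp, which was 46.9% of the merged width. Most members (2333, 92.2%) were a single peak in each of the 4 libraries.

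Most members sat inside genes and away from gene ends. Within 1 kb of either end of a protein-coding gene lay 8.98% of members (95% exact binomial interval 7.89 to 10.2%), against 47.0% (46.4 to 47.7%) of the regions called in all 6 libraries and 19.6% of all merged regions. Regions of pc-BMACs alone were at 7.04% (6.16 to 8.01%) and those of plasma cells alone at 6.82% (5.36 to 8.53%). A protein-coding gene was overlapped by 69.5% of members (67.7 to 71.3%), by 73.2% (71.6 to 74.8%) of regions of pc-BMACs alone and by 63.8% (60.8 to 66.7%) of regions of plasma cells alone. Regions called in plasma cells and immature B cells but in neither pc-BMAC library overlapped one in 52.8% (51.1 to 54.5%). The interval of the members lay above that last class and below regions of pc-BMACs alone. Inside a gene and more than 1 kb from every gene end lay 1577 members (62.4%), a share that was not computed for other regions. The median distance to the nearest annotated start was 17.1 kb for members and 14.8 kb for all merged regions. It was 18.3 kb for regions of pc-BMACs alone and 3.96 kb for regions called in all 6 libraries. These intervals cover counting error only, since regions are not replicates.

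**Figure D2:**
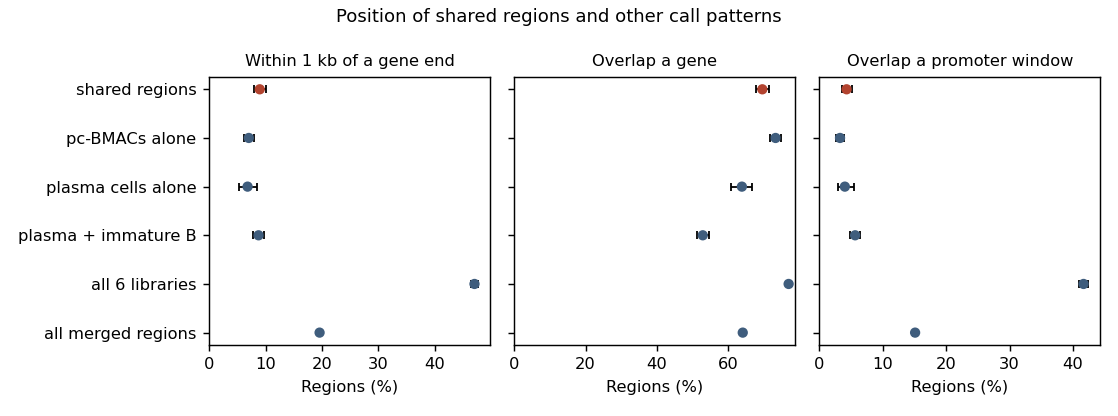
Share of regions within 1 kb of a protein-coding gene end, overlapping a promoter window and overlapping a protein-coding gene, by class, with 95% exact binomial intervals. Members stand at 8.98% near a gene end, against 47.0% of regions called in all 6 libraries.

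A promoter window of 300 bases was overlapped by 109 members (4.31%), against 41.7% of regions called in all 6 libraries and 15.1% of all merged regions. These 109 lay over 128 windows of 114 genes, 84 protein-coding and 30 for long non-coding RNAs. Only 9 of the 84 had another annotated start called in all 6 libraries. Their base composition lay between that of windows called everywhere and that of windows at large. The median GC content was 56.5% for member windows, against 62.3% for 10946 windows called in all 6 libraries and 52.7% for all 32851 windows. The observed over expected ratio of CpG reached 0.6 in 41.4% of member windows, in 80.8% of windows called in all 6 libraries and in 35.8% of all windows.

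The letters of several motifs were counted in the same windows on both strands, as a description with no test. E-boxes (CAGNTG), the sites of E proteins and other basic helix-loop-helix factors, were in 60.9% of member windows, 41.6% of windows called in all 6 libraries and 51.4% of all windows. The interferon response element type (GAAA, any 2 bases, GAAA) was in 8 member windows, 6.25%, against 2.81% and 3.44% in those other sets. The octamer (ATGCAAA), a site of OCT factors, was in 7.03% of member windows, 3.43% of windows called in all 6 and 4.63% of all windows. The GC box (GGGCGG) was in 47.7% of member windows, 69.5% of windows called in all 6 and 35.7% of all windows. For the ETS type (CCGGAA) the shares of these sets were 20.3%, 32.0% and 14.9%, and for CCAAT 25%, 38.9% and 37.4%. Member windows thus lay between the other sets for the GC box and the ETS type and below both for CCAAT. The XBP1 and ATF6 type (CCACGT) was in 13.3% of member windows, 12.4% of windows called in all 6 and 8.31% of all windows. The Blimp-1 type (AGNGAAAG) was in 7.81%, 6.98% and 8.63% of the same sets. Shares of the remaining types in member windows were 3.13% for the ETS-IRF composite (GGAA, any 2 bases, GAAA), 6.25% for AP-1 (TGANTCA), 1.56% for NF-kB (GGANTTTCC), 15.6% for RUNX (TGTGGT) and 7.81% for TATAAA. Over all windows these shares were 2.72% for the ETS-IRF composite, 7.81% for AP-1, 1.25% for NF-kB, 16.8% for RUNX and 13.6% for TATAAA. Some of these strings overlap one another, and windows of 1 gene can share bases.

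Within the 4 libraries that define the set, peaks were wider in pc-BMACs. Median called bases per member were 580 and 478 in pc-BMACs, with 382 and 340 in plasma cells. Each pc-BMAC library exceeded each plasma cell library at 1613 members (63.8%), and each plasma cell library exceeded each pc-BMAC library at 205 (8.11%). Over all 23804 regions called in these 4 libraries the shares were 51.9% and 8.81%, so that order was also the commoner one over all such regions. Where peaks had to cover at least 50% of the merged region in each library, the shares wider in pc-BMACs were 55.8% of members and 52.1% of all such regions. Of the 2529 members, 1281 (50.7%) met that rule, and other regions came in under it because immature B cell peaks that fill less of a region no longer count. The median ratio of mean called bases, pc-BMACs over plasma cells, was 1.41 in members, 1.16 over the 23804 regions and 1.14 over regions called in all 6 libraries. By pairs of libraries, the median ratio in members ran from 1.21 (pc-BMACs 2 over plasma cells 1) to 1.63 (pc-BMACs 1 over plasma cells 2), and within populations it was 1.16 for pc-BMACs 1 over 2 and 1.09 for plasma cells 1 over 2. With 2 libraries on each side the smallest two-sided exact p is 0.33, so no test was made. Peak width depends on depth, which the files do not give, and its part in the difference was not tested.

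**Figure D3:**
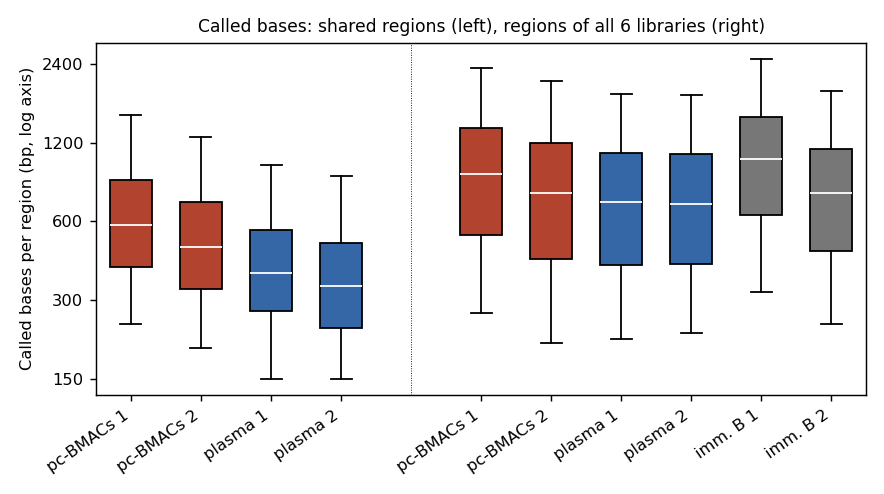
Called bases per region in each library, in bp on a log axis, for members (left) and for regions called in all 6 libraries (right); boxes span the quartiles with a white line at the median, and whiskers reach the 5% and 95% points. Members have medians of 580 and 478 bp in pc-BMACs and 382 and 340 bp in plasma cells, below the medians of regions called in all 6 libraries in the same libraries.

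Members were then assigned to the nearest protein-coding gene within 100 kb, by distance alone, which gives no evidence that a region acts on that gene. This placed 2440 members at 1772 genes, 11.7% of the 15196 genes with any assigned region, and 3.73% of 65361 assigned regions were members. A single member was found at 1337 genes, 2 at 295 and 3 or more at 140. Ecm2 was the only gene with more than 1 region whose every region was a member.

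Genes of plasma cell regulators held a larger share of members than all regions did. The list is mainly of transcription and RNA factors and also includes Jchain and Fndc3b. Like the other lists, it was chosen with earlier results of these data known, so its share is a description and carries no test. Of 257 regions at its 18 genes, 29 were members, which is 11.3% (7.69 to 15.8%) against 3.73% of all assigned regions. At least 1 member was found at 12 of the 18 genes. Zbtb20, a zinc finger factor needed for lasting plasma cell responses in mice, had 6 members of 37 regions. Tent5c, a poly(A) polymerase that lengthens the tails of immunoglobulin messages, had 5 of 18, and Fndc3b had 5 of 27. Zbtb20, Tent5c and Fndc3b together held most of the list's members, and the share without them was not computed. Both pc-BMAC libraries were wider at 20 of the 29 (69.0%, against 63.8% of all members). Both plasma cell libraries were wider at 2 (6.90%, against 8.11%). The same list held 31 regions of pc-BMACs alone (12.1%, against 4.53% of all assigned regions) and 1 of plasma cells alone (0.389%, against 1.51%). Where peaks had to cover at least 50% of the merged region in a library, the list's share was 7.004%, against 2.67% of all assigned regions. Of the members counted here, 2 of 6 at Zbtb20, 1 of 5 at Tent5c and 1 of 5 at Fndc3b met that rule.

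Tent5c held the widest member of the set. The region chr3:100477361-100483447, inside the gene, had 6030 and 6087 called bases in the pc-BMACs and 3010 and 2578 in the plasma cells. A member at the 3′ end of the gene, chr3:100468871-100472681, had 3783 and 1551 called bases in pc-BMAC libraries and 1294 and 897 in plasma cell libraries. Downstream, chr3:100461683-100464959 had 3277 and 2637 in pc-BMACs, with 2507 and 1338 in plasma cells. All 5 Tent5c members were wider in both pc-BMAC libraries than in both plasma cell libraries, as were 63.8% of all members. The members not named above lay 14.7 and 25.9 kb upstream. Under the 50% cover rule only chr3:100515123-100515833 of these 5 was left, with 710 and 710 called bases in the pc-BMACs and 577 and 544 in the plasma cells. Of the 18 Tent5c regions, 15 and 15 were called in pc-BMACs, 14 and 12 in the plasma cells, and 5 and 4 in the immature B cells.

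The gene of XBP1, the factor that drives the secretory programme, had 1 member of 6 regions and it was the runner-up in width. It covered the 3′ end of the gene at chr11:5523753-5528807, with 4946 and 5055 called bases in the pc-BMACs and 1451 and 1400 in the plasma cells. The Xbp1 promoter itself was called in all 6 libraries. At the 50% cover rule Xbp1 had no member, since the plasma cell peaks filled less of this region. Next in width came chr19:5821180-5825923 over Neat1, a long non-coding RNA that scaffolds nuclear paraspeckles, with 4419 and 4510 called bases in pc-BMAC libraries and 1775 and 1325 in plasma cell libraries. At Grk2, a kinase of G protein coupled receptors, chr19:4303238-4306647 was alike in all 4 libraries, with 3409 and 3051 called bases in pc-BMAC libraries and 3024 and 3262 in plasma cell libraries.

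**Figure D4:**
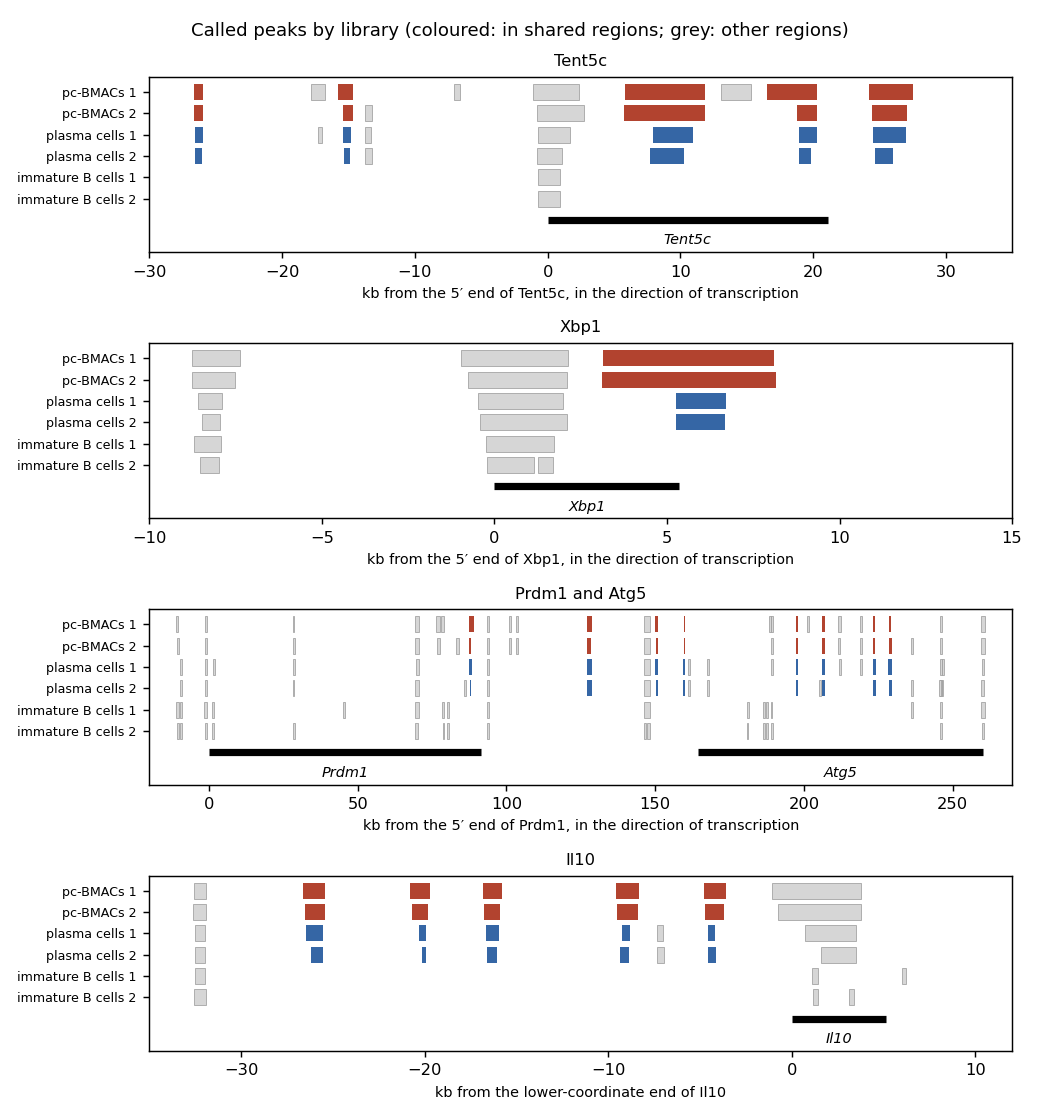
Called peaks of the 6 libraries at Tent5c, Xbp1, the Prdm1 and Atg5 interval, and Il10, with genes as black bars, against distance in kb; peaks in shared regions are red (pc-BMACs) or blue (plasma cells), other peaks grey, and narrow peaks are drawn at a least line width. At the shared regions both pc-BMAC and both plasma cell libraries have peaks and the immature B cell libraries have none.

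Prdm1, which encodes Blimp-1, had a single member among 24 regions, at chr10:44439603-44441256 near the 3′ end, with 1504 and 652 called bases in the pc-BMACs and 1112 and 634 in the plasma cells. The neighbouring autophagy gene Atg5 had 7 of 25, and 4 of these lay within Atg5 and 3 between the genes, 68.1, 58.4 and 35.7 kb from Prdm1. The last of these, chr10:44399890-44401432, lay 35.6 kb from Atg5, so that a small difference in distance decided its gene. It had 1543 and 1285 called bases in pc-BMAC libraries and 1521 and 1501 in plasma cell libraries. Of the 7 Atg5 members, 1 was wider in both pc-BMAC libraries, against 63.8% of all members. Both plasma cell libraries were wider at 2, against 8.11% of all members, and these are small numbers. By nearest gene, regions between the genes go to either one as distance decides. Irf4 had no member among 5 regions, and without immature B cells 2 as a condition Prdm1 had 2 members.

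Other regulators had fewer members. Ell2, an elongation factor that favours secreted immunoglobulin messages, had 2 of 19 regions, and Pou2af1, the coactivator of OCT factors, 2 of 10. Mef2c had 2 of 24. Creb3l2, a stress transducer of the secretory pathway, had 1 member of 16 but 6 regions of pc-BMACs alone. Arid3a and Ikzf1 each had 1.

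In the unfolded protein response, 9 of 97 regions were members (9.28%, interval 4.33 to 16.9%), at 3 of 20 genes, against 3.73% of all assigned regions. Ern1, which encodes the sensor IRE1 that splices the Xbp1 message, had 5 of 17. Atf6, which encodes another sensor of the endoplasmic reticulum, had 3 of 20, and Sel1l, an adaptor for degrading misfolded proteins, had 1 of 7. Of the 9, 8 were wider in both pc-BMAC libraries (88.9%, against 63.8% of all members) and none in plasma cells. The Ern1 member chr11:106463210-106464241 had 937 and 953 called bases in the pc-BMACs and 227 and 236 in the plasma cells, and 17 of its bases were called in all 4 libraries. At another, chr11:106479519-106480460, the values were 942 and 899 in the pc-BMACs and 751 and 726 in the plasma cells. All 5 Ern1 members were wider in pc-BMACs, and with peaks of at least 300 bp alone the gene had 3 members. An Atf6 member, chr1:170861584-170862420, had 757 and 758 called bases in pc-BMAC libraries and 813 and 744 in plasma cell libraries, so that the populations overlapped.

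Secretory pathway genes held 18 members of 278 regions (6.47%, 3.88 to 10.0%) at 7 of 53 genes, against 3.73% of all assigned regions. These were concentrated at a pair of glycosylation enzymes, since Fut8, which adds core fucose to N-glycans, and St6gal1, which adds sialic acid, held 12 of the 18. The list's share thus rests mainly on this pair, and the share without it was not computed. Fut8 had 6 of 33 regions, 5 of them upstream between 0.968 and 82.5 kb from the gene. Of its 6, 1 was wider in both pc-BMAC libraries and none in both plasma cell libraries, against 63.8% and 8.11% of all members. With peaks of at least 300 bp alone Fut8 had 3. The widest St6gal1 member, chr16:23294529-23297043, had 2356 and 1959 called bases in pc-BMACs, with 1853 and 1548 in plasma cells. At chr16:23308988-23309807 in St6gal1 plasma cells were the wider, with 435 and 379 called bases in the pc-BMACs and 820 and 737 in the plasma cells. Spcs2, a signal peptidase subunit, had 2 of 6, and Spcs3, Kdelr1, Dad1 and Stt3b had 1 each.

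Surface, homing and survival genes of plasma cells held 20 members of 267 regions (7.49%, 4.64 to 11.3%), at 11 of 27 genes. The share over all assigned regions was 3.73%. Cd44, a hyaluronan receptor, had 4 of 22, Il6ra, a receptor subunit for the survival factor IL-6, had 3 of 9, and the survival gene Bcl2 had 3 of 37. Of the 20, 13 were wider in both pc-BMAC libraries (65%, against 63.8% of all members). Both plasma cell libraries were wider at 5, which is 25% against 8.11% of all members. All 3 Il6ra and all 3 Bcl2 members were among the 13. At Cd44, chr2:102895937-102897049 had the opposite order, with 535 and 480 called bases in pc-BMAC libraries and 1072 and 815 in plasma cell libraries. Itga4 had 2 of 10, and Itgb7 and Cxcr3 had 1 each. Sdc1, which encodes the sort marker CD138, had 1 of 13, chr12:8790275-8791716 in the gene, with 1435 and 1114 called bases in pc-BMAC libraries and 538 and 574 in plasma cell libraries, while the Sdc1 promoter was called in all 6 libraries. Ly6c2 had a small member over its start, with 188 and 150 called bases in the pc-BMACs and 189 and 150 in the plasma cells, at the edge of what the caller reported. The near-identical Ly6c1 makes read placement there uncertain. Without the demand of absence from immature B cells 1 the list's share was 11.4%, against 5.09% of all assigned regions, and Tnfrsf13b, Tnfrsf17, Sdc1 and Xbp1 each had 2 members. With peaks of at least 300 bp alone Tnfrsf17 and Ltbr had none, and the members described here at Tnfrsf13b, Tnfrsf17, Sdc1, Ltbr and Prdm1 did not meet the 50% cover rule.

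Cd28, a costimulatory receptor also used by plasma cells, showed how the rule can join separate sites. At chr1:60755360-60756190 the called bases were 150 and 190 in the pc-BMACs and 831 and 701 in the plasma cells, and no base was called in all 4 libraries. The other Cd28 member, chr1:60771776-60772296, had 481 and 408 in pc-BMAC libraries and 480 and 469 in plasma cell libraries. That member rests on 408 bases called in all 4 libraries, and the populations overlapped there.

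Antigen presentation and costimulation genes had 9 members of 146 regions (6.16%, 2.86 to 11.4%), at 8 of 23 genes. The share over all assigned regions, 3.73%, lay inside that interval. Pdcd1lg2, which encodes the PD-1 ligand PD-L2, had 2 of 19, and Cd80, Cd86, Cd274, Cd74, H2-Oa, Tap2 and Nlrc5 had 1 each. At Pdcd1lg2, chr19:29493351-29495437 had 2087 and 1783 called bases in pc-BMACs, with 468 and 391 in plasma cells, while chr19:29429085-29430218 had 1117 and 1077 in the pc-BMACs and 909 and 768 in the plasma cells. Ciita, the master activator of MHC class II genes, had no member among 9 regions. Where an immature B cell peak within 500 bp also barred a region, a rule added after the data were seen, the list's share was 2.05%, against 3.51% of all assigned regions.

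Genes of Aire regulation and NF-kB signalling had 7 members of 140 regions (5.00%, 2.03 to 10.0%). The share over all assigned regions, 3.73%, lay inside that interval. Traf3, an inhibitor of the non-canonical NF-kB pathway, had 2 of 17, and Ltbr, Traf2, Rel, Nfkb1 and Irf8 had 1 each. Of the 7, 6 were wider in both pc-BMAC libraries (85.7%, against 63.8% of all members). Aire had a single assigned region, called in all 6 libraries, and no member.

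**Figure D5:**
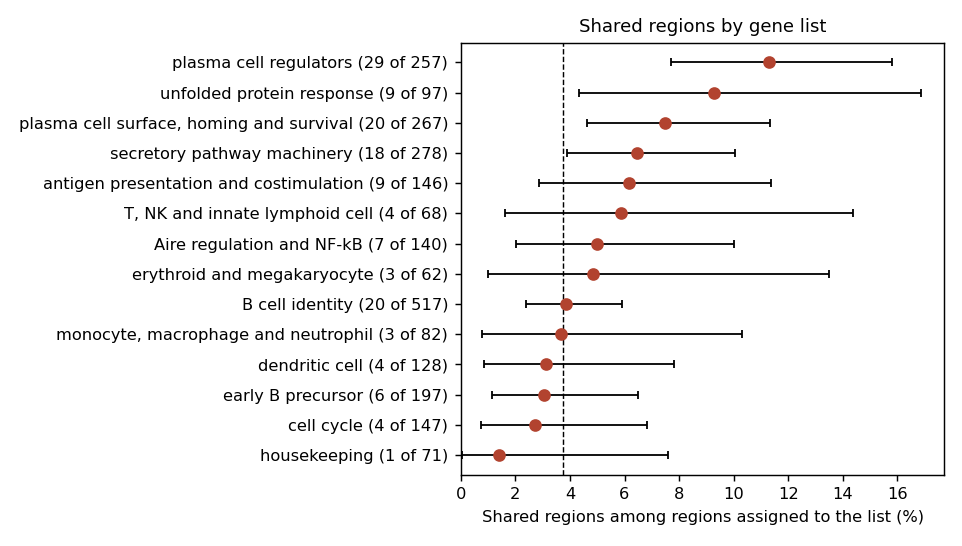
Share of assigned regions that were members, for each gene list, with 95% exact binomial intervals and the share over all assigned regions as a line at 3.73%. Plasma cell regulators stand at 11.3%, B cell identity genes at 3.87% and housekeeping genes at 1.41%. The lists were chosen with earlier results of these data known.

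B cell identity genes, which plasma cells largely shut down, stood near the background with 20 members of 517 regions (3.87%, 2.38 to 5.91%). Foxp1, a forkhead factor of the B lineage, had 6 of 99 regions, and Lyn, a kinase of the B cell receptor, had 3 of 20. At Foxp1, 5 of 6 members were wider in both pc-BMAC libraries, as were 63.8% of all members. The gene had 2 members with peaks of at least 300 bp alone. The 50% cover rule was met by 1 of the 6. Pax5, which holds B cell identity, had 2 of 20, and its regions were called 7 and 5 times in pc-BMACs, 10 and 8 times in plasma cells and 15 and 14 times in immature B cells. The larger Pax5 member, chr4:44624265-44625206, had 879 and 879 called bases in pc-BMAC libraries and 942 and 889 in plasma cell libraries. Ebf1 had 2 of 46, and at chr11:44715823-44716531 no base was called in all 4 libraries.

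Genes of early B precursors had 6 of 197 (3.05%, 1.13 to 6.51%), against 3.73% of all assigned regions. Of the 6, Tcf4, an E protein, held 3 and Kit 2. The other Kit member, chr5:75599579-75600757 in the gene, had 1179 and 1078 called bases in pc-BMACs, with 580 and 261 in plasma cells. Of the 5 Kit regions, 5 and 5 were called in pc-BMACs, 3 and 2 in the plasma cells, and 1 and 0 in the immature B cells. With peaks of at least 300 bp alone Kit had 1 member, and under the 50% cover rule it had none.

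Markers of other lineages and general genes were at or near the background too, on small numbers. T, NK and innate lymphoid genes had 4 of 68 (5.88%, 1.63 to 14.4%), at Cd4, Cd247, Tcf7 and Il2rb. Erythroid and megakaryocyte genes had 3 of 62 (4.84%, 1.01 to 13.5%), with 2 at Slc4a1, the red cell anion exchanger, and 1 at Tal1. Monocyte, macrophage and neutrophil genes had 3 of 82 (3.66%, 0.761 to 10.3%), with 2 of 3 regions at Cebpe, a granulocyte factor, and 1 at Mpo, the granule peroxidase. Dendritic cell genes had 4 of 128 (3.13%, 0.858 to 7.81%), cell cycle genes 4 of 147 (2.72%, 0.746 to 6.82%) and housekeeping genes 1 of 71 (1.41%, 0.0357 to 7.60%). Some of these shares turned on 1 library. Without immature B cells 1 the T, NK and innate lymphoid share was 10.8% and the monocyte, macrophage and neutrophil share 6.58%, against 5.09% of all assigned regions. Without pc-BMACs 2 the monocyte, macrophage and neutrophil share was 6.17%, against 4.14%, and without pc-BMACs 1 the erythroid and megakaryocyte share was 8.06%, against 4.21%. Without plasma cells 2 the cell cycle share was 6.85%, against 5.15% of all assigned regions. The 4 T, NK and innate lymphoid members were small and had no common order. At Cd4, the helper T cell coreceptor, chr6:124879397-124879707 had 311 and 272 called bases in the pc-BMACs and 189 and 191 in the plasma cells. At Il2rb, a cytokine receptor of T and NK cells, chr15:78510106-78510594 had 235 and 150 in pc-BMAC libraries and 381 and 489 in plasma cell libraries. At Tcf7, a T lineage factor, chr11:52275416-52275798 had 196 and 187 in pc-BMACs, with 372 and 233 in plasma cells. The populations overlapped at Cd247, a T cell receptor subunit, where chr1:165811234-165811619 had 312 and 328 in the pc-BMACs and 262 and 338 in the plasma cells. The part of other cell types in these members was not tested. Within 10 kb of the 12 immunoglobulin constant region genes, 21 regions were found and 1 was a member, chr16:19059598-19060158 beside Iglc1 and Iglc3, with 553 and 561 called bases in the pc-BMACs and 464 and 447 in the plasma cells.

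Members were also counted by whether another member lay near. Another member lay within about 12 kb of 542 members (21.4%, 19.8 to 23.1%), a share close to that of regions of pc-BMACs alone (23.1%, 21.6 to 24.7%) and above that of regions of plasma cells alone (11.1%, 9.30 to 13.2%). With a region of the same class as neighbour, the share was 48.5% for regions called in all 6 libraries and 81.7% for all merged regions. All these shares grow with the number of regions in a class, which was not matched. The 542 members formed 248 groups of 2 or more, 36 of 3 or more and 7 of 4 or more.

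A group of 5 members lay beside Il10, the gene of an anti-inflammatory cytokine that some plasma cells secrete. It spanned 23.1 kb, chr1:130993188-131016265, and held 6 merged regions in all. Summed called bases of its members were 5752 and 4988 in pc-BMAC libraries and 2900 and 2445 in plasma cell libraries. The member nearest to the gene, chr1:131015085-131016265, lay 3.58 kb away and had 1181 and 1027 called bases in pc-BMACs, with 402 and 455 in plasma cells. The farthest, chr1:130993188-130994420, lay 25.4 kb away and had 1233 and 1059 in the pc-BMACs and 941 and 677 in the plasma cells. All 5 were wider in both pc-BMAC libraries, as were 63.8% of all members. The nearest immature B cell peaks were 4.66 to 15.1 kb away. Of 10 regions assigned to Il10, 8 and 8 were called in pc-BMACs, 9 and 9 in the plasma cells, and 4 and 3 in the immature B cells. The 50% cover rule was met by 2 of the 5 members beside Il10.

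Groups of the same size lay in Arsg and Wipi1 and in Atxn1. Arsg encodes a lysosomal sulfatase and Wipi1 an autophagy protein, and their group at chr11:109569224-109600364 had 5503 and 4467 called bases in pc-BMAC libraries and 2613 and 2633 in plasma cell libraries. Atxn1, which encodes the nuclear protein ataxin-1, had more members than any other gene, 12 of 47 regions, with 11 inside the gene and 5 of them in a group at chr13:45861778-45891651. That group had 3307 and 2047 called bases in pc-BMACs, with 2108 and 2011 in plasma cells, so the populations overlapped. Over the 47 regions, 37 and 30 were called in pc-BMACs, 28 and 25 in the plasma cells, and 19 and 16 in the immature B cells. The broadest Atxn1 member, chr13:45832365-45833726, had 1362 and 950 called bases in the pc-BMACs and 937 and 725 in the plasma cells. The 50% cover rule was met by 5 of the 12 Atxn1 members.

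Several genes of signalling and transcription followed Atxn1 by number of members. Cbfa2t3, a corepressor of blood cells, had 7 of 21 regions, and 3 of these lay 7.13 to 17.9 kb upstream. The widest of them, chr8:122706463-122708206, had 1744 and 1044 called bases in pc-BMAC libraries and 677 and 590 in plasma cell libraries. Etv6, an ETS repressor, had 6 of 33, and 6 of its other regions were of pc-BMACs alone. Dusp22, a phosphatase, and Rgs3, a regulator of G protein signalling, each had 6 of 35. At Dusp22 the region chr13:30714531-30716880 just downstream had 2350 and 2052 called bases in pc-BMACs, with 1152 and 1186 in plasma cells. Ptpn11, which encodes the phosphatase SHP-2, had 5 of 10, and its regions were called 10 and 9 times in pc-BMACs, 7 and 8 times in plasma cells and 2 and 2 times in immature B cells. Long genes collect more regions of every kind, and these counts are not scaled to length. The 50% cover rule was met by 1 of 7 members at Cbfa2t3, 3 of 6 at Rgs3 and 3 of 5 at Ptpn11.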

How the data were processed

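The labels describe ATAC-seq of sorted bone marrow cells, with 6 libraries in 3 populations. Bowtie2 2.3.3, HOMER 4.10, bedtools and the build mm10 are named in the submitters' processing notes; their roles, the peak calling settings, the read depth and what the lists were intersected with were not given in the sources used here. Each deposited list gives a peak's position and a score that is 1000 in every row and was not used.

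Any overlap of 1 bp or more joined peaks into 1 region. Regions were assigned to the nearest protein-coding gene of RefSeq GRCm38.p6 (the assembly behind mm10) within 100 kb; promoter windows came from the same release. Shares have exact (Clopper-Pearson) binomial intervals at 95%, which cover counting error only. The interval, merging and assignment steps were tested on simulated data. Python 3.11.15, pandas 2.3.3, numpy 2.4.6, scipy 1.17.1 and matplotlib 3.10.9 were used.

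Genes named were the 12 with most members, up to 3 from each gene list by number of members, and 12 fixed by name; regions named were the widest at these genes, the 3 groups with most members and members over promoters of listed genes. Other members named were chosen after their values were seen. The members and lists were chosen with earlier results of these data known. Immunoglobulin genes are not protein-coding entries in the gene table and were counted separately. Alternatives covered the overlap rule, peak width, list length, merging gap, assignment distance, windows and leaving out each library.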

Additional observations from a re-analysis of the deposited data

How the results depend on the processing

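The number of shared regions, 2529, was 1805 where a library's peaks had to fill 50% or more of the region, 3088 with the widest peaks in lists of equal length, 2442 with gaps of 200 bp bridged, and 1566 with peaks of at least 300 bp alone. Under the 50% rule the share near a gene end was 11.1%, the share wider in both pc-BMAC libraries 55.8% (52.1% over all regions called in the 4 libraries), the share with a neighbour within about 12 kb 18.3% and the share of plasma cell regulator regions 7.004%. That neighbour share was 25.3% with equal lists and 19.1% with peaks of at least 300 bp, and 10.99% within 5 kb. Counted within 5 kb, 23.9% of members lay near a gene end. Leaving out each library in turn gave 2739 to 3461 regions, 8.79 to 10.5% near a gene end, 69.0 to 69.8% overlapping a gene, 63.8 to 78.1% wider in pc-BMACs (78.1% without pc-BMACs 2, where all such regions stood at 74.4%; 75.7% and 70.2% without plasma cells 1 and 2, against 62.8% and 62.4%), 21.8 to 25.3% with a neighbour, and 11.8 to 15.02% for the regulator list. Of the other lists' values, 172 of 182 lay within the 95% exact interval of the reported share and 10 did not. Of the named genes' counts, 683 of 784 lay within 1.5 times the reported count and 101 did not. A pair of alternatives was chosen after seeing the data: barring regions with an immature B cell peak within 500 bp left 2376, and asking for a base called in all 4 libraries left 2515. The causes of these shifts were not tested. No paired analysis was possible because the results come from peak positions and from no test. Without depth, absence of a peak in immature B cells cannot be told apart from a peak below the calling threshold.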

Other observations

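Further promoters lay under shared regions, and the genes in the next sentences were chosen after their values were seen. Myd88, the adaptor of Toll-like receptors, had a member over its start with 921 and 808 called bases in the pc-BMACs and 600 and 592 in the plasma cells, and its window held the interferon response element type. Oasl1, an interferon-induced gene, had 657 and 671 called bases in pc-BMAC libraries and 534 and 531 in plasma cell libraries. Mpeg1, which encodes perforin-2, a pore-forming protein of phagocytes, had 899 and 787 in pc-BMACs, with 570 and 592 in plasma cells. At these 3 genes every pc-BMAC library exceeded every plasma cell library, as at 63.8% of all members.

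Ctla4, whose product binds CD80 and CD86, had the opposite order, with 389 and 400 called bases in the pc-BMACs and 690 and 601 in the plasma cells. That order held at 8.11% of all members. Pigr, the receptor that carries polymeric IgA across epithelia, had a small member, with 345 and 273 called bases in pc-BMAC libraries and 189 and 150 in plasma cell libraries. Fut1, a fucosyltransferase, had 2793 and 2635 in pc-BMACs, with 891 and 917 in plasma cells. Kdelr3, a receptor that returns proteins to the endoplasmic reticulum, had 969 and 641 in the pc-BMACs and 486 and 455 in the plasma cells. Zmynd11, a reader of histone marks, was alike in all 4 libraries, with 2828 and 2679 in pc-BMAC libraries and 2228 and 2695 in plasma cell libraries.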
